A study of Homo sapiens with 12 samples.

Results

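Cadherins, claudins and keratins are 3 gene families of the epithelial surface and its cytoskeleton. They were taken from the table of gene counts as every row named CDH, CLDN or KRT followed by a number, with or without a letter, and keratin-associated protein genes, pseudogenes and antisense genes were left out. The rule gave 102 of 26485 rows, 23 cadherins, 24 claudins and 55 keratins, after 10 of 112 rows with such names were left out as pseudogenes or antisense RNAs. The RNA came from HepG2, an established human hepatoma line, in 4 stable lines made by lipofection with a CRISPR vector and selection with blasticidin. The line named Empty had received the empty vector and is labelled WT. The lines Z2, Z5 and Z9 had received vectors for sgZHX3-2, sgZHX3-5 and sgZHX3-9, and the series title calls such cells ZHX3-depleted. Each line was 1 stable line seeded in 3 wells, so n = 3 wells per line throughout. P-values therefore measure the spread between wells and not between separately made lines. With 1 control line, what the vectors did and the history of the Empty line cannot be told apart.

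Classical cadherins span the membrane, bind the same cadherin on the next cell through calcium, and hold actin through catenins at the adherens junction. Claudins are the strands of the tight junction, where each member sets how tight, or how permeable to ions, the seal between cells is. Keratins are intermediate filaments built from pairs of a type I and a type II chain, anchored at desmosomes and hemidesmosomes. Normal hepatocytes carry the simple pair KRT8 and KRT18, whereas KRT7 and KRT19 mark bile duct cells.

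Levels are in CPM, counts per 1e6 counts of a library, and are given as mean ± SD over 3 wells. Library sizes were scaled by TMM, edgeR's trimmed mean of M-values. Sums and ranges of hepatocyte, bile duct, fibroblast and endothelial markers are instead in CPM on unscaled library totals. A gene is said to have risen or fallen where edgeR's quasi-likelihood test gave a Benjamini-Hochberg adjusted p under 0.05 over all 15289 genes tested. Library totals ran from 50864744 to 65428204 counts. ZHX3 mRNA was at 32.7 to 33.5 CPM in the Empty wells and 32.5 to 34.9 CPM in the others, and the mean of Z2, Z5 and Z9 differed from Empty by 0.04 on the log2 scale (edgeR adjusted p = 0.544). An mRNA level does not show whether the gene was cut, so the lines are called by their names here. On unscaled totals, the hepatocyte list (10 of 10 genes in the table) summed to 54820 to 56340 CPM in the Empty wells. On that scale it was lower in every other well. It ran from 50930 to 54520 for Z2, 52260 to 53020 for Z5 and 49940 to 51360 for Z9. Its part in the results was not tested. ALB was at 10610 to 18470 CPM. Of defining markers of other cells, VIM had 2 counts over all 12 libraries, PTPRC 3 and KDR 0. However, the fibroblast list's PDGFRB was at 20.93 to 33.11 CPM and the endothelial list's PECAM1 at 4.50 to 6.77 CPM. CDH5 and VWF of the endothelial list had counts in every well too.

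Of the genes whose level differed from Empty, CLDN6 and CLDN2 moved in opposite directions within 1 family, so the letters around their starts are shown. Each run covers 250 bases before to 50 bases after a RefSeq start on GRCh38.p14, written on the gene's strand, 5′ to 3′. Capitals mark matches on either strand to CAGGTG (an E-box bound by SNAI-type repressors), CCAAT (the box bound by NF-Y), GGGCGG (a GC box) and TATAAA.
CLDN6, chr16:3018134-3018433, minus strand: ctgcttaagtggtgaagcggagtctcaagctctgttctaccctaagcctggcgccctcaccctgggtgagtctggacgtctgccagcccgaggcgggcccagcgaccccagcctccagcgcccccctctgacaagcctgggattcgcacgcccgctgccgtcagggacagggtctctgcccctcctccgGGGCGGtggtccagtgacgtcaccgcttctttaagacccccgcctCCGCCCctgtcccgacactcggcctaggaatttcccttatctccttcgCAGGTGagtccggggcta
CLDN2, first start, chrX:106899914-106900213, plus strand: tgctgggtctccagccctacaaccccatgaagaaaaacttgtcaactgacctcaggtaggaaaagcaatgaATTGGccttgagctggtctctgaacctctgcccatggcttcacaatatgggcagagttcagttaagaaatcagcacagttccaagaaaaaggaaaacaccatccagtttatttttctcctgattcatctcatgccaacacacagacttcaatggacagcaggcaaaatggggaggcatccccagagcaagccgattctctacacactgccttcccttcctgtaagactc
CLDN2, second start, chrX:106918110-106918409, plus strand: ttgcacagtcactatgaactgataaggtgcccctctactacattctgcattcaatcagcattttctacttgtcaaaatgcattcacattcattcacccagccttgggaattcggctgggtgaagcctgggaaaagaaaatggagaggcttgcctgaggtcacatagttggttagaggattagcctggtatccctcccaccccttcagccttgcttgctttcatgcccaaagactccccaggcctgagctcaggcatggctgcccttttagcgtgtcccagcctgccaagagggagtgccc
The CLDN6 run had a GC content of 66%, with 1 CAGGTG and 2 GGGCGG. That CAGGTG lies in the 50 bases after the start and not before it. The first CLDN2 run had 47.3% GC and 1 CCAAT, and the second had 51.3% GC and no match to any of these letters. Among 35116 promoters of the same length, 20.6% held CAGGTG, 34.6% CCAAT, 45.0% GGGCGG and 11.5% TATAAA, and the median GC content was 58.67%. The letters of CCAAT, read on either strand, can overlap a GC box or TATAAA, and no matches overlapped in the printed runs. Promoters were matched for 21 of the 36 tested members and for 6 of the 9 that differed from Empty. The CLDN11 promoter at its upstream start (72% GC) held 3 CCAAT and 3 GGGCGG, and that of KRT8 held none of the 4.

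Counts were found for 72 of the 102 genes: 19 of 23 cadherins, 20 of 24 claudins and 33 of 55 keratins. Having 0 counts in 667204524 allows up to 0.0045 CPM over all libraries, by counting error alone. The cadherins with none were CDH7, CDH8, CDH12 and CDH18, and the claudins with none were CLDN8, CLDN17, CLDN22 and CLDN25. All exonic bases of CLDN22 are shared with WWC2 on the opposite strand, which had 77184 counts, so the limit does not hold for CLDN22 if reads in both genes were dropped. Of the 27 keratins on chromosome 12, which are the type II chains and KRT18, 11 had counts, against 22 of the 28 type I chains on chromosome 17. The 22 silent keratins included KRT1, KRT2, KRT5, KRT6A and KRT9 of the epidermis, KRT4 of stratified mucosa, and KRT71 to KRT77 and KRT82 to KRT84, most of them chains of the hair follicle and its sheath. KRT6B, KRT24, KRT26, KRT27, KRT28 and KRT33B completed that set.

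A further 36 genes had counts but too few to be tested, between 1 and 61 each over the 12 libraries. Among the cadherins these were CDH9 with 61 counts, CDH3 with 33, CDH17 (the liver-intestine cadherin) with 16, CDH19 with 14, CDH10 with 11, CDH6 with 8, CDH22 with 7, CDH11 and CDH13 with 2 and CDH20 with 1. Among the claudins they were CLDN7 with 42, CLDN10 with 35, CLDN18 with 29, CLDN24 with 15 and CLDN34 with 7. CLDN10 shares 46.1% of its exonic bases with DZIP1 on the opposite strand, so its few counts cannot be assigned with certainty. KRT7 had 55 counts and KRT13 46, while KRT81 had 23, KRT40 21, KRT31 17 and KRT38 9. KRT32, KRT34, KRT35 and KRT36 had 5 counts each. KRT14, the basal keratin, had 3, as did KRT25, KRT78, KRT79 and KRT85, and KRT16 and KRT222 had 2. KRT3, KRT6C, KRT33A and KRT86 had 1.

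**Figure D1:**
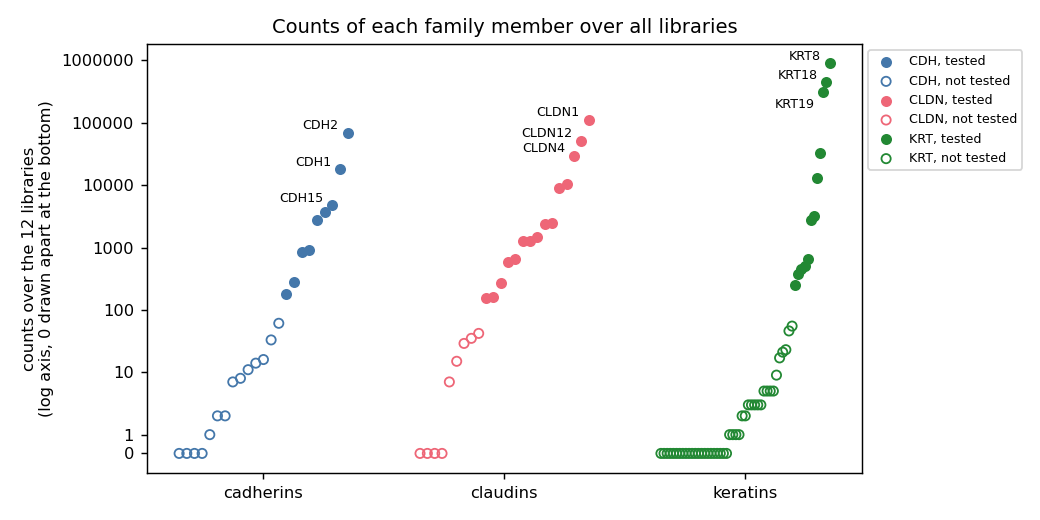
Counts of each cadherin, claudin and keratin summed over the 12 libraries, on a log axis with 0 drawn apart at the bottom. Filled points are the 36 tested genes, open points those not tested, and 22 of 55 keratins lie at 0 while KRT8 reaches 893099 counts.

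Few genes carried most of each family's counts. KRT8, KRT18 and KRT19 made up 96.4% to 97.2% of all keratin counts in every library. In the Empty wells, per kilobase of exon in GENCODE 29 (the union of exons, then the longest principal transcript), KRT8 was at 215.5 or 697.4 CPM per kb, KRT18 at 221.9 or 457.2 and KRT19 at 189.5 or 318.4. On the same scale CLDN1 was at 47.9 or 50.4, CDH2 (N-cadherin) at 21.8 or 24.9, CLDN12 at 10.2 or 19.3 and CDH1 (E-cadherin) at 5.87 or 7.42. The 3 simple keratins thus stood above CLDN1, and CLDN1 above CDH2, by either length, whereas the order of KRT8 and KRT18 depended on the length used. In every line CDH2 had more counts than CDH1: the ratio was 2.74 to 3.19 in the Empty wells and 3.94 to 5.06 in the wells of Z2, Z5 and Z9.

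In the mean of Z2, Z5 and Z9 against Empty, 5 of the 36 tested genes were higher and 4 were lower, where 13.0% and 12.6% of all tested genes were called higher and lower. The share called, 9 of 36, was close to that of all genes (25.6%). The median log2 fold change of the 36 was 0.06 against 0.0029 for all genes, and the median absolute change 0.20 against 0.13. The genes that rose were CDH5, CLDN6, KRT80, CDH4 and CLDN12, and those that fell were CLDN2, CDH1, CLDN11 and KRT8. By family these were 3 of 9 cadherins, 4 of 15 claudins and 2 of 12 keratins. With the wells of a line added up and each line taken as 1 unit, 3 genes were called higher (CDH5, CLDN6 and KRT80) and 2 lower (CDH1 and CLDN2), against 3.95% and 2.69% of all genes. CDH4, CLDN12, CLDN11 and KRT8 were not called there (edgeR adjusted p = 0.226, 0.116, 0.157 and 0.202). That fit takes its spread from Z2, Z5 and Z9 alone, since Empty is then 1 unit assumed to vary as they do.

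**Figure D2:**
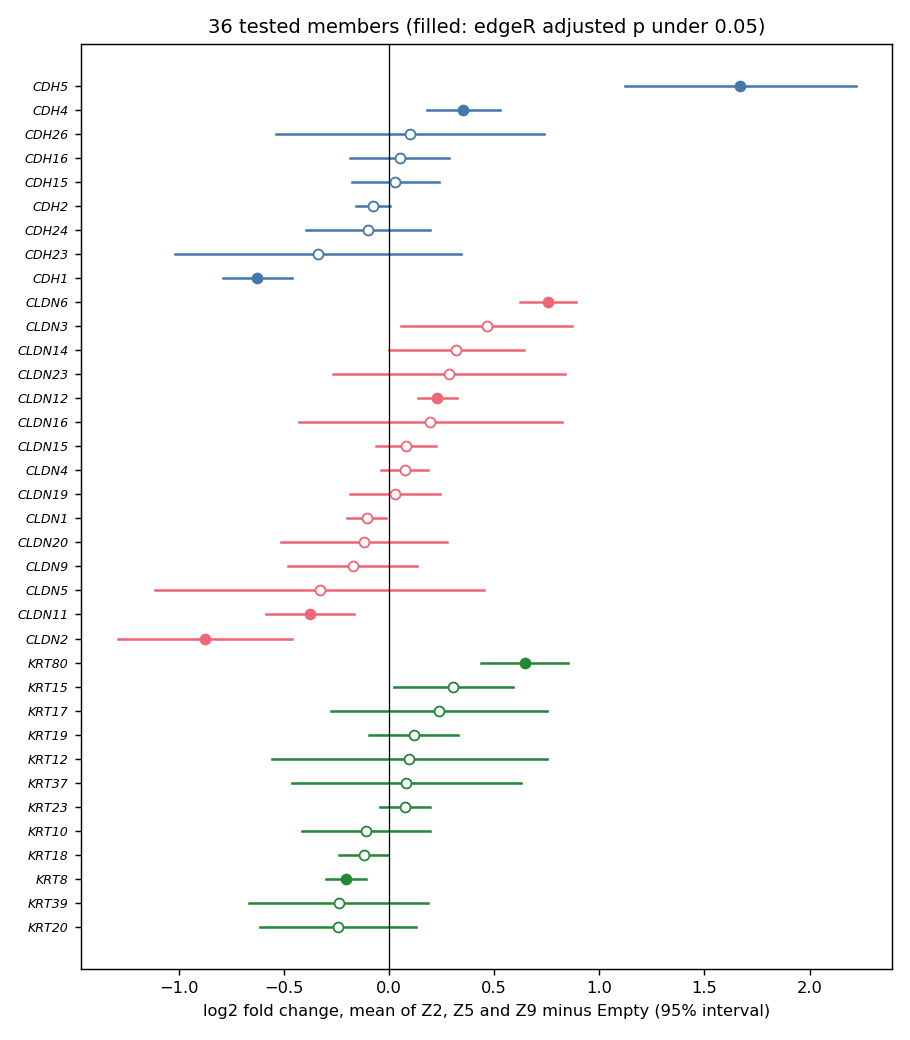
Log2 fold change of each of the 36 tested genes in the mean of Z2, Z5 and Z9 against Empty, with its 95% interval, cadherins at the top, then claudins and keratins. Filled points have an edgeR adjusted p under 0.05: 5 lie above 0, from CLDN12 at 0.23 to CDH5 at 1.67, and 4 below it, from KRT8 at -0.20 to CLDN2 at -0.88.

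The best known epithelial cadherin, CDH1, fell. CDH1 (GRCh38.p14 chromosome 16, 68737292 to 68835537, plus strand) joins epithelial cells and binds beta-catenin. It was at 33.3, 36.1 and 39.4 CPM in Empty wells a, b and c, at 18.7, 22.3 and 24.5 for Z2, 20.5, 24.2 and 26.01 for Z5 and 23.9, 25.6 and 26.5 for Z9. All 9 wells of the 3 lines lay below the lowest Empty well. For this and the other called genes, the same wells gave the call, so their separation adds no support to it. The share of all genes with such separation was not counted. The mean of the 3 lines was 0.648 times Empty (95% interval 0.578 to 0.727), a log2 change of -0.63 (SE 0.08, edgeR adjusted p = 2.48e-05). Each line alone was also lower, by log2 changes of -0.73, -0.62 and -0.52 for Z2, Z5 and Z9 (edgeR adjusted p = 8.21e-05, 4.64e-04 and 0.00158).

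CDH2, the N-cadherin that hepatocytes carry beside E-cadherin, was not called. It was at 106.2, 108.9 and 107.9 CPM in Empty, 94.3, 103.9 and 96.6 for Z2, 103.7, 100.4 and 103.1 for Z5 and 104.2, 107.3 and 107.0 for Z9. No well of the 3 lines was above the highest Empty well, and 7 of 9 were below the lowest. The fold of the mean was 0.949 (95% interval 0.897 to 1.005, edgeR adjusted p = 0.172). In Z2 alone CDH2 narrowly missed the threshold (log2 change -0.13, edgeR adjusted p = 0.0541). Without Z2 well b it was called lower in the mean (log2 change -0.09, edgeR adjusted p = 0.0351). Summed over the family, cadherins took 159 to 165 of every 1e6 counts in the Empty wells, 135 to 144 for Z2, 145 to 148 for Z5 and 153 to 158 for Z9.

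CDH5 (chromosome 16, 66366691 to 66404784, plus strand), the VE-cadherin of endothelial junctions, rose from a very low level. It had 24, 40 and 19 counts in the Empty wells, against 60, 123 and 81 for Z2, 83, 84 and 105 for Z5 and 60, 81 and 81 for Z9. In CPM these are 0.471, 0.693 and 0.291 in Empty, 1.13, 2.36 and 1.52 for Z2, 1.43, 1.61 and 1.84 for Z5 and 1.11, 1.4 and 1.46 for Z9. All 9 wells lay above the highest Empty well, and those of Z2 were the most spread. The mean was 3.18 times Empty (95% interval 2.18 to 4.66), a log2 change of 1.67 (SE 0.26, edgeR adjusted p = 1.76e-04), with 1.79, 1.76 and 1.46 in Z2, Z5 and Z9. All 4 endothelial markers were in the table. They summed to 6.21 to 6.36 CPM in Empty, 7.48 to 8.501 for Z2, 6.59 to 6.81 for Z5 and 7.29 to 8.45 for Z9, CDH5 included. PECAM1 made up most of this at 4.50 to 6.77 CPM over all wells, VWF was at 0.380 to 0.856 CPM, and KDR, the endothelial VEGF receptor, had 0 counts in every well. In bulk RNA, more cells of a type and more RNA per cell cannot be told apart.

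CDH4 (chromosome 20, 61252261 to 61940617, plus strand), the R-cadherin best known from retina and brain, rose as well, and it was the only tested gene of the 3 families that differed between 2 of Z2, Z5 and Z9. It was at 4.34, 4.77 and 4.53 CPM in Empty, 5.04, 5.46 and 4.89 for Z2, 5.15, 5.76 and 6.12 for Z5 and 6.75, 6.41 and 7.12 for Z9. All 9 wells lay above the highest Empty well, and the Z9 wells lay above every well of the other lines. The mean was 1.28 times Empty (95% interval 1.13 to 1.44), a log2 change of 0.35 (SE 0.08, edgeR adjusted p = 0.00459). The log2 change against Empty was 0.57 in Z9 and 0.32 in Z5 (edgeR adjusted p = 6.06e-04 and 0.0401) and 0.17 in Z2, where it was not called (edgeR adjusted p = 0.229).

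The other 5 tested cadherins were not called in any comparison. CDH15, the M-cadherin of muscle, was at 7.40, 6.24 and 7.21 CPM in Empty, 7.24, 5.26 and 6.85 for Z2, 6.65, 8.002 and 6.84 for Z5 and 8.26, 8.07 and 6.94 for Z9. Its lines overlapped, and the fold of the mean was 1.02 (95% interval 0.885 to 1.18, edgeR adjusted p = 0.849). In Empty, CDH16, a kidney cadherin, was at 4.07 ± 0.64 CPM and CDH24 at 1.43 ± 0.22. CDH26 was at 0.396 ± 0.093 CPM and CDH23, a cadherin of the tip links of hair cells in the inner ear, at 0.308 ± 0.119 CPM. Their log2 changes in the mean of the lines ran from -0.34 in CDH23 to 0.10 in CDH26, each with an interval that included 0.

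**Figure D3:**
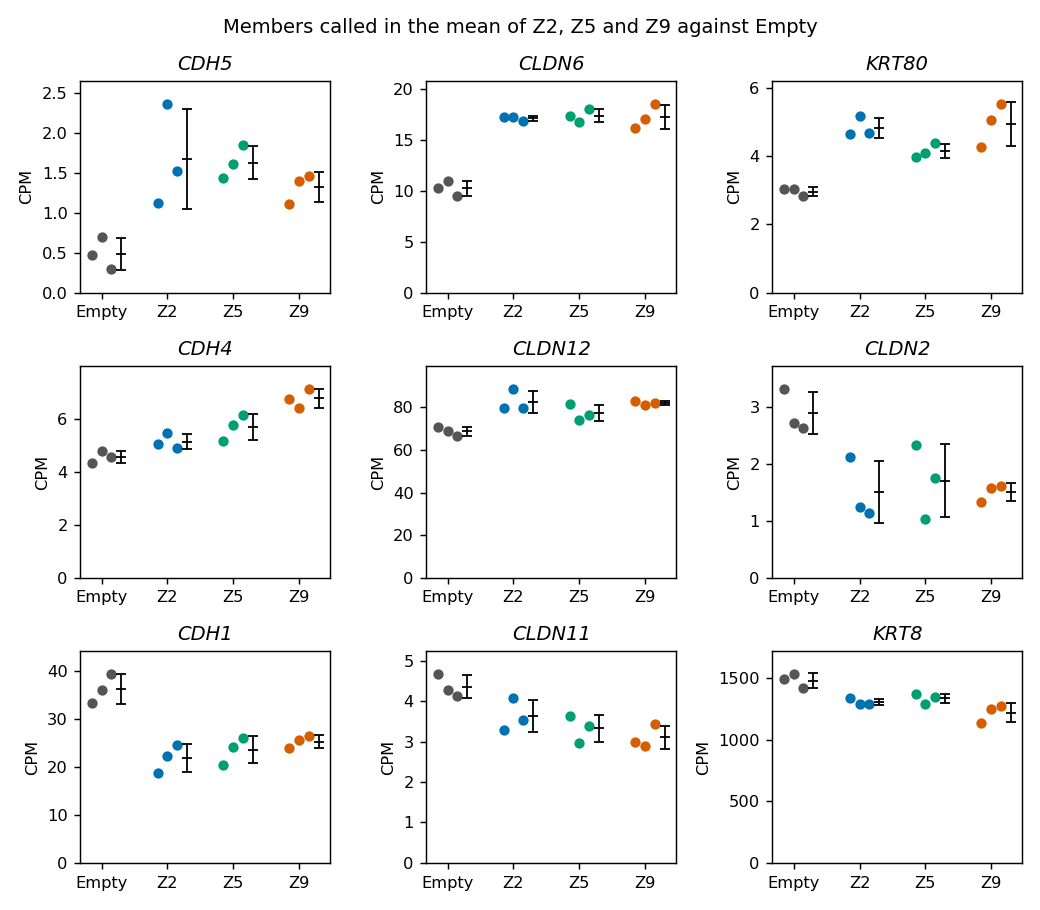
CPM in each well of the 9 genes called in the mean of Z2, Z5 and Z9 against Empty, 1 panel per gene, with the mean and SD of each line beside its 3 points and each axis starting at 0. In each panel the wells of Z2, Z5 and Z9 lie on 1 side of all 3 Empty wells. The genes were chosen by their call on these same wells, so this adds no separate support.

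Among the claudins, CLDN6 had the smallest adjusted p of all members. CLDN6 (chromosome 16, 3014712 to 3018183, minus strand), next to CLDN9, is a claudin of embryonic epithelia and of some tumours. It was at 10.3, 11 and 9.50 CPM in Empty, 17.3, 17.3 and 16.8 for Z2, 17.4, 16.8 and 18.0 for Z5 and 16.2, 17.1 and 18.6 for Z9. The lowest of the 9 wells, at 16.2, stood well clear of the highest Empty well. The mean was 1.69 times Empty (95% interval 1.54 to 1.85), a log2 change of 0.76 (SE 0.06, edgeR adjusted p = 1.55e-07), and the log2 changes of the lines were 0.74, 0.77 and 0.76 in Z2, Z5 and Z9. The exons of CLDN6 share 2.3% of their bases with TNFRSF12A on the other strand. CLDN9, its neighbour, was at 2.41 ± 0.34 CPM in Empty, 2.31 ± 0.47 for Z2, 2.04 ± 0.23 for Z5 and 2.09 ± 0.41 for Z9. CLDN9 was not called (log2 change -0.17, SE 0.15, edgeR adjusted p = 0.415), and the 2 genes' changes were not tested against each other.

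CLDN12 (chromosome 7, 90403461 to 90415954, plus strand), a claudin that lacks the usual tail for binding the junction's scaffold proteins, rose by a smaller factor. It was at 70.8, 68.7 and 66.7 CPM in Empty, 79.7, 88.7 and 79.8 for Z2, 81.4, 74.0 and 76.4 for Z5 and 82.8, 81.1 and 82.1 for Z9. The 9 wells were above the highest Empty well. The mean was 1.17 times Empty (95% interval 1.10 to 1.252), a log2 change of 0.23 (SE 0.04, edgeR adjusted p = 0.00112), and it was called in each line, in Z5 with an edgeR adjusted p of 0.0436. On its own strand CLDN12 shares 5.15% of its exonic bases with GTPBP10 (16236 counts in all) and 2.98% with CDK14 (374 counts).

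CLDN2 (chromosome X, 106900164 to 106930861, plus strand), which forms a pore for cations and water in leaky epithelia, fell. It was at 3.32, 2.72 and 2.64 CPM in Empty, 2.12, 1.249 and 1.13 for Z2, 2.32, 1.04 and 1.75 for Z5 and 1.33, 1.57 and 1.61 for Z9. Every well of the 3 lines was below the lowest Empty well, although well a of Z2 and of Z5 came near it. The mean was 0.545 times Empty (95% interval 0.409 to 0.726), a log2 change of -0.88 (SE 0.19, edgeR adjusted p = 0.0037). It was lower in Z2 and Z9, by -0.94 on the log2 scale in both, and missed the threshold in Z5 at -0.75 (edgeR adjusted p = 0.0518). CLDN2 shares 10.0% of its exonic bases with RIPPLY1, which had 96 counts in all.

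CLDN11 (chromosome 3, 170418868 to 170434691, plus strand), the claudin of myelin and of Sertoli cells, fell too. It was at 4.67, 4.26 and 4.12 CPM in Empty, 3.29, 4.07 and 3.54 for Z2, 3.63, 2.96 and 3.38 for Z5 and 2.99, 2.89 and 3.43 for Z9. All 9 wells were below the lowest Empty well, Z2 b by little. The mean was 0.770 times Empty (95% interval 0.667 to 0.890), a log2 change of -0.38 (SE 0.10, edgeR adjusted p = 0.00975), and without Empty well a it was no longer called (edgeR adjusted p = 0.0781). It was called in Z5 and Z9 but not in Z2 (log2 change -0.26, edgeR adjusted p = 0.137). CLDN11 shares 18.3% of its exonic bases with AC026316.5 on the same strand, which was not a row of the count table.

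CLDN1, the claudin with the most counts and a main sealing claudin of liver, was at 178.3, 172.0 and 176.3 CPM in Empty, 170.3, 158.8 and 153.5 for Z2, 185.1, 167.1 and 165.4 for Z5 and 160.8, 153.9 and 154.6 for Z9. Well a of Z5 was the highest of all 12, and 8 of the 9 wells of the 3 lines were below the lowest Empty well. In the mean it was not called (fold 0.929, 95% interval 0.871 to 0.992, edgeR adjusted p = 0.0921). It was called lower in Z9 alone (log2 change -0.17, SE 0.05, edgeR adjusted p = 0.0421), and no pair of Z2, Z5 and Z9 was called for it. CLDN4, another sealing claudin, was at 44.4, 42.2 and 41.3 CPM in Empty, 49.4, 44.7 and 48.9 for Z2, 43.3, 43.7 and 49.0 for Z5 and 38.5, 43.8 and 43.2 for Z9. Its lines overlapped, with a fold of 1.05 (95% interval 0.974 to 1.14, edgeR adjusted p = 0.333).

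The remaining tested claudins were not called in any comparison. In Empty, CLDN15, a channel claudin of the gut, was at 13.1 ± 0.4 CPM, CLDN19, a claudin of the thick ascending limb of the kidney, at 3.66 ± 0.48, CLDN14 at 1.60 ± 0.13 and CLDN20 at 0.932 ± 0.145. CLDN3 was at 0.765 ± 0.226, CLDN23 at 0.343 ± 0.044, CLDN5, the claudin of the blood-brain barrier, at 0.271 ± 0.145 and CLDN16 at 0.215 ± 0.027. Of these, CLDN3 was nearest the threshold, with means of 1.18 ± 0.16 for Z2, 0.952 ± 0.200 for Z5 and 1.08 ± 0.07 for Z9 and a log2 change of 0.46 (SE 0.19, edgeR adjusted p = 0.0863). CLDN3 and CLDN4 lie near each other on chromosome 7. As a family, claudins took 322 to 357 of every 1e6 counts of each library, with the 4 lines overlapping.

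The keratins of simple epithelia changed little. KRT8 (chromosome 12, 52897191 to 52949860, minus strand), the type II chain, was at 1494, 1536 and 1418 CPM in Empty, 1340, 1293 and 1291 for Z2, 1370, 1295 and 1348 for Z5 and 1136, 1250 and 1278 for Z9. All 9 wells were below the lowest Empty well. The mean was 0.869 times Empty (95% interval 0.813 to 0.929), a log2 change of -0.20 (SE 0.05, edgeR adjusted p = 0.00341). It was called lower in Z2 and Z9 (edgeR adjusted p = 0.0277 and 0.00211) and not in Z5 (log2 change -0.15, edgeR adjusted p = 0.0871).

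KRT18, the type I partner of KRT8, was not called. It was at 681.1, 754.6 and 706.8 CPM in Empty, 619.4, 618.4 and 695.5 for Z2, 672.7, 664.5 and 717.6 for Z5 and 582.6, 660.1 and 684.1 for Z9. Of the 9 wells 6 were below the lowest Empty well and none was above the highest. The fold of the mean was 0.920 (95% interval 0.849 to 0.996, edgeR adjusted p = 0.117), and the changes of KRT8 and KRT18 were not tested against each other. The ratio of KRT8 to KRT18 counts was between 1.86 and 2.19 in all wells. The 2 genes are neighbours on chromosome 12 and share 525 exonic bases on opposite strands, 16.3% of those of KRT18 and 7.63% of those of KRT8. RefSeq lists 52 pseudogenes named for KRT8 and 68 for KRT18, of which 1 each was a row of the table, so the counting of copied sequence makes both levels uncertain.

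KRT19, a type I chain of bile ducts that hepatoma lines often carry, was not called either. It was at 418.5, 492.8 and 416.5 CPM in Empty, 466.7, 585.3 and 516.4 for Z2, 449.9, 468.9 and 528.6 for Z5 and 360.4, 456.0 and 503.1 for Z9. Wells of 1 line differed as much as the lines did, and the fold of the mean was 1.09 (95% interval 0.937 to 1.26, edgeR adjusted p = 0.411). Of the other bile duct markers SOX9 (298 to 333.3 CPM), EPCAM (155.2 to 167.4 CPM) and SPP1 (311.4 to 654.3 CPM) were present, whereas KRT7 had 2 to 8 counts a well and CFTR 1 count in all. The list of 7 summed to 1200 to 1304 CPM in Empty, 1489 to 1724 for Z2, 1492 to 1572 for Z5 and 1464 to 1656 for Z9. SPP1 had the widest range of the 7 over all wells. The difference in the sum, and the part of each gene in it, were not tested.

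KRT80 (chromosome 12, 52168996 to 52192014, minus strand), a type II keratin of many epithelia, was the only keratin that rose in the mean of the lines. It was at 3.02, 3.03 and 2.82 CPM in Empty, 4.64, 5.17 and 4.67 for Z2, 3.98, 4.09 and 4.37 for Z5 and 4.26, 5.05 and 5.53 for Z9. All 9 wells lay above the highest Empty well. The mean was 1.57 times Empty (95% interval 1.36 to 1.81), a log2 change of 0.65 (SE 0.10, edgeR adjusted p = 1.27e-04), with 0.71, 0.49 and 0.74 in Z2, Z5 and Z9.

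Of the other tested keratins, KRT15, a type I chain of basal and progenitor cells, was called in Z2 alone. It was at 4.09 ± 0.92 CPM in Empty, 5.63 ± 1.18 for Z2, 4.93 ± 0.52 for Z5 and 4.68 ± 0.46 for Z9. The log2 change was 0.46 in Z2 (SE 0.16, edgeR adjusted p = 0.0477) and 0.31 in the mean of the lines (edgeR adjusted p = 0.105). KRT23, at 48.0 ± 3.6 CPM in Empty, and KRT10, a keratin of differentiated epidermis at 20.4 ± 1.0 CPM, were not called. KRT39 was at 1.11 ± 0.18 CPM in Empty, KRT20 of gut epithelium at 0.870 ± 0.104 and KRT37 at 0.628 ± 0.192. KRT17, of epidermal appendages and injured skin, was at 0.488 ± 0.133 CPM and KRT12 of the cornea at 0.354 ± 0.178, and neither was called. Of the other markers of stratified epithelium, the type II chains KRT5 and KRT1 and the envelope protein IVL had no counts, and KRT14 and the transcription factor TP63 had 3 each over all libraries.

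**Figure D4:**
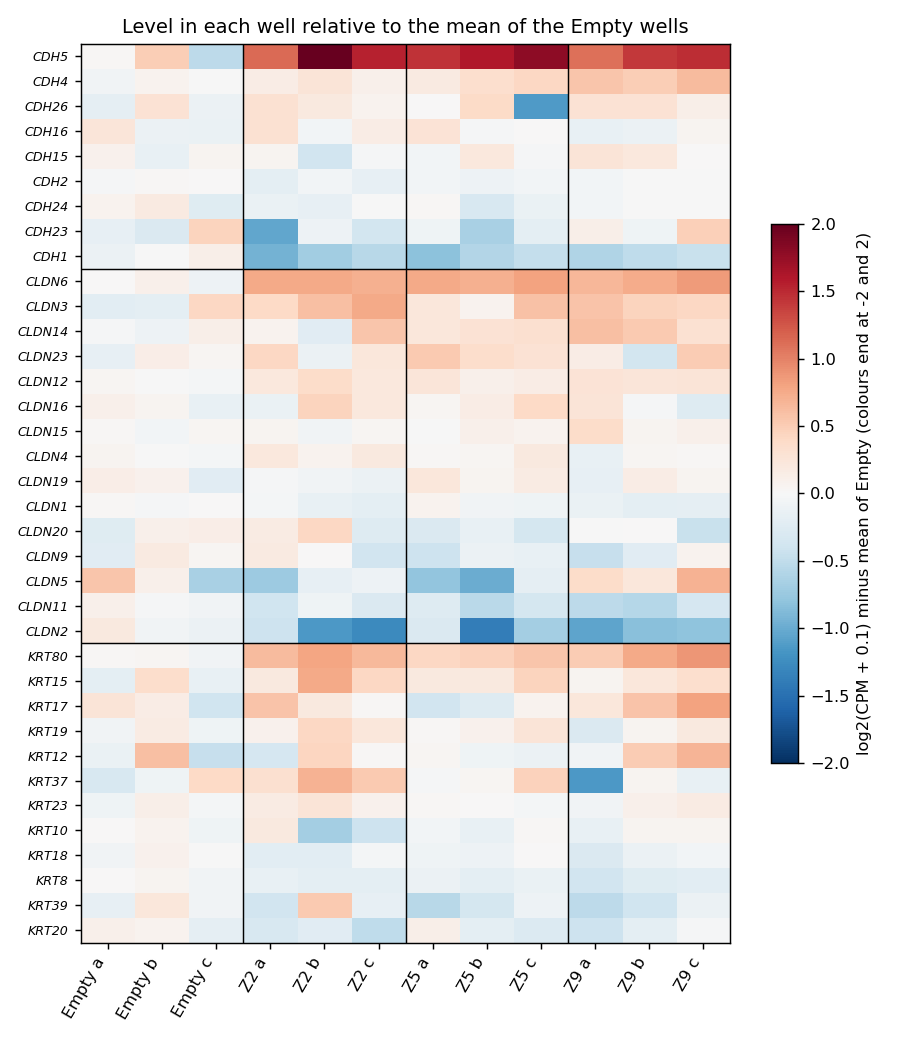
Level of each of the 36 tested genes in every well, as log2(CPM + 0.1) minus the mean of the Empty wells, red above and blue below, with colours ending at -2 and 2. The rows of CDH5, CLDN6 and KRT80 are red and that of CDH1 blue in all 9 wells of Z2, Z5 and Z9, while KRT18 and KRT19 stay near white.

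Each line was also set against Empty on its own. In Z2, 5 genes were higher and 3 lower, against 12.4% and 11.5% of all genes. In Z5, 5 were higher and 2 lower, against 8.27% and 6.68%, and in Z9, 5 were higher and 5 lower, against 9.66% and 9.58%. Those 3 comparisons share the Empty wells. Called higher in every line were CDH5, CLDN6, CLDN12 and KRT80, 4 of 36 genes where 4.98% of all genes were, and called lower in every line was CDH1 alone, where 3.80% of all genes were. Without Empty well a, 5 genes were called in Z2. In Z5 the calls fell to 4 without any one of the Empty wells, Z5 b or Z9 b, and to 3 without Z5 c. The shares of all genes called in these fits are not given here.

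Between Z2, Z5 and Z9 few members differed. CDH4 was 1.32 times higher in Z9 than in Z2 (95% interval 1.14 to 1.52), a log2 difference of 0.40 (SE 0.10, edgeR adjusted p = 0.0335), where 5.17% of all genes were called between these lines. That call was lost when only Z2 and Z9 entered the fit (edgeR adjusted p = 0.122) and without Z2 c, Z5 b or any one of the Z9 wells (edgeR adjusted p = 0.0525 to 0.0956). Z9 against Z5 gave CDH4 a log2 difference of 0.25 (edgeR adjusted p = 0.227) and Z5 against Z2 one of 0.15 (edgeR adjusted p = 0.603). In Z5 against Z2 edgeR called 0 of the 36, where 0.00654% of all genes were called. An unadjusted edgeR p under 0.05 was found for 1 of the 36 and for 1571 of all 15289 genes. DESeq2 called 0 of the 36 and 11 of all genes. In Z9 against Z5 edgeR also called 0, where 1.52% of all genes were called. There 6 of the 36 had an unadjusted edgeR p under 0.05, as did 2210 of all 15289 genes. DESeq2 called 0 of the 36 and 504 of all genes. KRT37, at 0.923 ± 0.134 CPM in Z2 and 0.468 ± 0.219 in Z9, was nearest to a call after CDH4 in Z9 against Z2 (log2 difference -0.97, SE 0.32, edgeR adjusted p = 0.0802). Without Z2 well a, KRT37 and KRT10 were called in Z9 against Z2 (log2 difference -1.07 and 0.53, edgeR adjusted p = 0.0469 and 0.0023), and KRT10 in Z5 against Z2 (0.49, edgeR adjusted p = 0.0298). KRT10 was at 23.4, 12.6 and 15.2 CPM in Z2 wells a, b and c, against 18.3 to 21.3 CPM in the wells of the other lines.

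Genes that work with these families were read from 7 lists, in the mean of Z2, Z5 and Z9 against Empty, with all changes on the log2 scale. Of 129 tested genes on the lists, 26 were called higher and 26 lower. The shares of all genes against which these and each list's counts are read are 13.0% higher and 12.6% lower, with a median change of 0.0029. Without Empty well a the counts were 11 and 15, where 7.28% and 6.33% of all genes were called. For the other libraries left out in turn such shares are not given. Counts of a list called there are therefore no result about that list. Among 17 adherens junction partners, 2 rose and 3 fell, with a median log2 change of 0.04. CTNNA1, the alpha-catenin that ties cadherins to actin, rose by 0.20 (edgeR adjusted p = 0.0129), and PVRL4 (nectin-4) by 0.28 (0.0105 by the same test). CTNNBIP1, an inhibitor of beta-catenin binding to TCF factors, fell by 0.24 (edgeR adjusted p = 3.34e-04), and PVR, a nectin-like receptor, fell by 0.13 (edgeR adjusted p = 0.0293). Without Empty well a CTNNA1 and PVRL4 were no longer called, and without Empty well b or c PVR was not. The list then had 2 genes called without Empty a and 3 without Empty b.

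Of 12 desmosomal genes 4 rose and 1 fell, with a median of 0.17. EVPL (envoplakin), a plakin of the cornified envelope, fell by 0.65 (SE 0.06, edgeR adjusted p = 6.87e-07), from 27.2 ± 0.8 CPM in Empty to 16.3 ± 2.0 for Z2, 19.8 ± 0.1 for Z5 and 16.2 ± 0.9 for Z9. The desmosomal cadherin DSG2 rose by 0.21, PKP4 (plakophilin-4) by 0.14 and PERP by 0.23 on the log2 scale. Without Empty well a none of these 3 was called, and 1 gene of the list was. Without Empty well c 2 of the list were, PKP4 and PERP not among them, and PKP4 was not called without Empty well b either. No share of all genes called is given for the fits without Empty b or c.

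Of 28 tight junction genes 3 rose and 4 fell, with a median of -0.010. The scaffold protein TJP3, which binds claudin tails, fell by 0.43 (edgeR adjusted p = 0.00105). PARD6A, of the polarity complex, rose by 0.49 (edgeR adjusted p = 0.00236). PMP22, a membrane protein of the claudin superfamily, fell by 0.53 (edgeR adjusted p = 0.00462), from 3.65 ± 0.16 CPM in Empty to 1.81 ± 0.36 in Z9. Of this list, 4 genes were called without Empty well a.

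Of 18 genes that link keratins or form hemidesmosomes, 4 rose and 5 fell, with a median of 0.04. ITGA6 and ITGB4, the pair of integrin chains of the hemidesmosome, rose by 0.24 and 0.28 (edgeR adjusted p = 3.85e-04 and 0.014). LAMA3, a chain of the laminin they bind, fell by 0.31, and LMNB1, a lamin of the nuclear envelope, fell by 0.34 (edgeR adjusted p = 0.01 and 0.0013). When Empty well a was left out 3 genes of the list were called and LAMA3 was not. Without Empty well b 5 were and ITGB4 was not, and the share of all genes called there is not given.

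Of 16 genes that process cadherins and claudins, 3 rose and 4 fell, with a median of -0.0074. Without each library in turn 7 were called. The shares of all genes in those fits are given only without Empty well a, so no stability of the list is read from it. PTPRM, a phosphatase that binds cadherin complexes, fell by 0.76 (edgeR adjusted p = 7.29e-05), from 91.4 ± 9.5 CPM to 61.7 ± 12.1 for Z2, 54.5 ± 3.6 for Z5 and 46.7 ± 2.4 for Z9. MMP14, a membrane protease, fell by 0.55 (edgeR adjusted p = 5.05e-05). PTPRF, a phosphatase of cell contacts, rose by 0.25 (edgeR adjusted p = 9.49e-04).

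Of 22 regulators of epithelial and mesenchymal genes, 3 rose and 8 fell, with a median of -0.13. SNAI2, a repressor of CDH1, fell by 2.01 on the log2 scale (SE 0.32, edgeR adjusted p = 2.03e-04), from 0.660 ± 0.062 CPM in Empty to 0.158 ± 0.055 for Z2, 0.1001 ± 0.0499 for Z5 and 0.267 ± 0.181 for Z9. GRHL1, an activator of epithelial junction genes, rose by 0.49, while GATA6 fell by 0.57 and TCF3, an E-box factor, fell by 0.25 (edgeR adjusted p = 1.00e-05, 1.20e-04 and 2.50e-04). CDH1 and SNAI2 were both lower in the mean of the 3 lines. Of this list 6 were called without Empty well a, and without Empty well b 7. For the latter fit the share of all genes called is not given.

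Of 16 other members of the cadherin superfamily 7 rose and 1 fell, with a median of 0.21. CDHR3 rose by 0.53, CDHR2, a cadherin of microvilli, by 0.29, CELSR2, a planar polarity cadherin, by 0.23 and CDHR1 by 1.02 (edgeR adjusted p = 7.70e-04, 0.00142, 0.00148 and 0.0101). CDHR1 was at 0.281 ± 0.058 CPM in Empty and 0.543 to 0.611 in the means of the other lines, and it was not called without Empty well a (edgeR adjusted p = 0.0606). Without that well 3 of the list were called. Without any one of Empty b, Empty c and Z5 b 5 were, with no shares of all genes to set beside them.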

How the data were processed

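RNA was sequenced from 12 HepG2 libraries, 4 stable lines of 3 wells. The authors deposited whole-number read counts per gene symbol. STAR, featureCounts and hg38 are named in the submitters' processing notes, and the sources used here do not give versions, annotation, strand setting or the handling of multiply mapped reads. Overlapping and antisense genes therefore cannot be told apart. Counts were tested with edgeR 4.0.16 (R 4.3.3): filterByExpr left 15289 genes, and 4 group means were fitted by robust quasi-likelihood to TMM-scaled libraries (8 residual degrees of freedom, common biological coefficient of variation 0.0696). Benjamini-Hochberg adjustment was made within a comparison. The SE is the size of the log2 fold change over the root of F. The fit was also run on simulated counts, drawn with its own spread and with independent wells, and the outcome is not reported here. Such counts cannot show an effect of the well letter or of the 1 control line. Between wells of 1 line, chi-square per degree of freedom was 6.01 to 42.97, so no library repeated another.

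The members and lists were chosen with earlier results of these data known. Values in every well are given for the 3 members per family with the highest counts, those called in the mean of the 3 lines and those called between lines. Of each list, up to 4 genes with the smallest adjusted p are named, and 2 of these are not reported here. Chromosomes and promoters came from RefSeq tables of GRCh38.p14, and exon lengths from GENCODE 29; the authors' annotation may differ. Protein features had been planned and were not computed. Alternatives were DESeq2 1.42.0 size factors and Wald test, other filters on low counts, a 1.5-fold minimum, the well letter as a block, the compared groups fitted alone, lines as units, and each library left out in turn.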

Additional observations from a re-analysis of the deposited data

Results flagged for a closer look

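CDH4 differed between 2 of the lines that received ZHX3 vectors, which were set against the same Empty wells. Its log2 difference for Z9 minus Z2 was 0.3984 (SE 0.10, edgeR adjusted p = 0.0335), with 3 of 3 Z9 wells above 3 of 3 Z2 wells. The same wells gave the call, so their separation adds no support to it. The call was lost with only Z2 and Z9 in the fit (edgeR adjusted p = 0.122). It was also lost without Z2 c, Z5 b or any one of the Z9 wells (edgeR adjusted p = 0.0525 to 0.0956). Lines had 3 wells each, too few for a test of single wells that stand apart.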

How the results depend on the processing

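CDH1, CDH5, CLDN6, CLDN2 and KRT80 were called in the mean of the lines under all 18 alternatives to the settings used, a 1.5-fold minimum aside. KRT8, CDH4 and CLDN12 were called under 17 and CLDN11 under 16. With lines as units 5 of the 36 were called in place of 9 (1016 of all 15289 genes), and with a 1.5-fold minimum 5 (5.51% of all genes). With no filter beyond 1 count, 4 were called in Z5 in place of 7. For Z9 minus Z2, 3 were called in place of 1 with the well letter as a replicate block (CDH1, CDH4 and KRT37) and 0 with only the groups compared. Leaving out each library in turn gave 5 to 11 for Z2 against Empty, 3 to 9 for Z5 against Empty, 0 to 1 for Z5 minus Z2, 0 to 3 for Z9 minus Z2, and 26 to 57 genes of the lists in place of 52. The log2 change of CDH15 ran from -0.0406 without Empty replicate b (edgeR adjusted p = 0.842) to 0.0762 without Empty replicate a, and neither was called. The cause of these changes was not tested. The well letters were not taken as pairs, since not every correlation of deviations passed 0.1: they ran from -0.10 to 0.17 over 18 pairs of the same letter, 5 over 0.1 (4 of the 6 between wells a), against 2 of 36 pairs of different letters. Of 12 wells 6 correlated best with their own letter, a hint from the data and not from the design. With the replicate block, 11 of the 36 were called in the mean, 11 in Z2, 8 in Z5, 10 in Z9 and 56 genes of the lists. In the mean it added CLDN1 (-0.11, edgeR adjusted p = 0.0437) and KRT15 (0.32, edgeR adjusted p = 0.043), and CDH1 had an edgeR adjusted p of 3.17e-08. Shares of all genes called are not given here for the block, the other filters, the groups fitted alone or the left-out libraries. The mean without Empty well a is the exception. Such counts are therefore no result about these families. Genes under about 1 CPM, such as CLDN5 and CDH23, had wide intervals at this depth, and differences smaller than those were not detectable.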

Other observations

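CDH1 was lowest in well a and highest in well c of each of the 4 lines, and the count ratios of CDH2 to CDH1 and of KRT8 to KRT18 were highest in well a and lowest in well c of each line, a pattern noticed after the values were seen, and what the letters stand for was not stated in the labels. CLDN5 was at 0.377 ± 0.083 CPM in Z9 and 0.130 ± 0.071 in Z5, a log2 difference of 1.505 (SE 0.47) that missed the threshold (edgeR adjusted p = 0.134). KRT17 was at 0.745 ± 0.166 CPM in Z9 and 0.412 ± 0.086 in Z5, a log2 difference of 0.85 that missed it too (SE 0.29, edgeR adjusted p = 0.173).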
